A study of Mus musculus with 6 samples.

Results

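The annexins are a family of proteins that bind phospholipid membranes in the presence of calcium. The 8 annexin genes described here, Anxa1, Anxa2, Anxa3, Anxa4, Anxa5, Anxa6, Anxa7 and Anxa11, were taken by symbol from the table of normalized counts, out of 55471 genes in all. Anxa2 was the starting point, because the protein it encodes binds S100a10, also called p11. Bulk RNA-seq was performed on YFP-positive cells sorted from the subgranular zone (SGZ), the layer of the dentate gyrus where neural stem and progenitor cells reside. There were 3 replicates of 3xTg-AD;Nestin-CreERT2;ROSA26-EYFP mice (3xTg) and 3 of NTG;Nestin-CreERT2;ROSA26-EYFP mice (NTG). Both were labelled strain B6129SF2/J and postnatal day 35, and both had received tamoxifen 10 days before the sort. 3xTg mice, a model of Alzheimer's disease, carry disease-linked alleles that NTG mice do not. NTG mice came from a colony kept apart from the 3xTg mice, so genotype and colony cannot be told apart. A Nestin promoter drives the CreERT2 of both groups, and tamoxifen marks the cells permanently, so the sorted cells include later progeny of Nestin-expressing cells. Whether animals were pooled for a replicate is not given in the sources used here.

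Annexins share a core of repeats, each able to hold calcium, that docks on phosphatidylserine and other acidic lipids, and they differ mainly in the N-terminal segment before that core. Some bind an S100 protein through that segment. Annexin A2 and p11 form a complex that brings plasminogen activation to the cell surface, links membranes to the actin skeleton and carries ion channels and receptors to the plasma membrane, and annexin A1 binds S100A11. In the brain, annexins are known from membrane repair, secretion and endocytosis, and p11 from serotonin signalling and hippocampal neurogenesis.

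The N-terminal segments that bind the S100 proteins are shown first, because the S100 partners of Anxa1 and Anxa2 were the genes of this group that rose in 3xTg cells. The lines below give the first 60 coding bases of each mRNA in GRCm38, with the first 45 bases, start codon included, in capitals. They encode the outer end of that segment. The Anxa1 bases lie in exon 2 on the minus strand (chr19:20384699-20384758), and the Anxa2 bases in exons 2 and 3 on the plus strand (chr9:69464477-69467302, intron removed).
Anxa1: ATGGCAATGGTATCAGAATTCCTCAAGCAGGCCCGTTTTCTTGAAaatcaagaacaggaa
Anxa2: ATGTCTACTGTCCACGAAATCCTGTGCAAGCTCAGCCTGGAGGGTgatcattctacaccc

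The core is shown next, as the feature that all 8 members share and that the choice by symbol did not use. Each line gives 48 coding bases in GRCm38 around the first stretch that encodes glycine, any residue, glycine and threonine, the signature of an annexin calcium site, with the 12 bases of that signature in capitals. All of these stretches are exonic and cross 1 splice junction, whose intron was removed. They lie at chr19:20382111-20382879 (minus strand, exons 5 and 6) for Anxa1, chr9:69479774-69483003 (plus strand, exons 5 and 6) for Anxa2, chr5:96811113-96812864 (plus strand, exons 3 and 4) for Anxa3 and chr6:86757891-86760698 (minus strand, exons 3 and 4) for Anxa4. Those of Anxa5 (chr3:36464040-36465275, exons 3 and 4), Anxa6 (chr11:55009171-55011009, exons 5 and 6) and Anxa7 (chr14:20464681-20464868, exons 6 and 7) are on the minus strand, and that of Anxa11 (chr14:25874007-25874232, exons 5 and 6) is on the plus strand.
Anxa1: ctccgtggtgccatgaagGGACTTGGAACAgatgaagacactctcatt
Anxa2: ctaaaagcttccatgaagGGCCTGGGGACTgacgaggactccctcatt
Anxa3: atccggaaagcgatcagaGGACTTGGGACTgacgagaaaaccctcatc
Anxa4: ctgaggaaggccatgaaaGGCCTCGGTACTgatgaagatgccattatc
Anxa5: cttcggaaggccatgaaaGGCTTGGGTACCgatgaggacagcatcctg
Anxa6: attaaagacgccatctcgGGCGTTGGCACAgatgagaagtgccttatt
Anxa7: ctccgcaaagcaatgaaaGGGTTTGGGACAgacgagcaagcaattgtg
Anxa11: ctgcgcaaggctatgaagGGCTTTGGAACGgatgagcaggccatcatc

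The signature was followed by the codon of an acidic residue 38 to 40 residues later at each of its occurrences, of which there were 2 in Anxa1 and in Anxa2, 5 in Anxa6 and 3 in each of the other members. The encoded proteins ranged from 319 residues (Anxa4 and Anxa5) to 673 residues (Anxa6, which carries the core as a duplicate). Between pairs of members, 41.9% (Anxa1 and Anxa5) to 59.2% (Anxa4 and Anxa11) of the aligned residues were identical. At the mRNA level, a search for stretches of at least 100 bases and 95% identity found no other gene for Anxa1, Anxa2, Anxa5, Anxa6 or Anxa7. Anxa4 shares 102 such bases with Ndufs1 and 121 with Wdr33. Those genes had 4518 to 7354 (Ndufs1) and 3382 to 4372 (Wdr33) normalized counts, more than Anxa4 in every library. Anxa3 shares 115 such bases with the overlapping Gm42603, which had no more than 1.17 normalized counts in any library. For Anxa11 the search found the predicted genes Gm2260 and Gm2274, which had no more than 1.4 normalized counts in any library, and its own antisense gene.

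Sorted cells held the neural stem and progenitor transcripts that the labels imply. Nes, Sox2 and Hopx were present in every library. None of the 17 neural stem and progenitor markers passed the test by limma, edgeR or DESeq2. At an unadjusted limma p under 0.05, 3 were higher in 3xTg and 3 lower, beside 12.1% and 11.4% of all genes. The 3 lower included Sox2 (log2 fold change of -0.41) and Hopx (-0.37). Transcripts listed as markers of other cells were present too. The 10 astrocyte markers had the highest sums of the marker lists, 1285885 to 1596475 normalized counts in 3xTg and 1281759 to 1571571 in NTG. The 12 markers of the oligodendrocyte lineage summed to 640689 to 684883 normalized counts in 3xTg and 335885 to 716102 in NTG. Libraries held 53063475 to 81800375 assigned reads in 3xTg and 32731794 to 42576455 in NTG, so every 3xTg library was the deeper. The first principal component held 48.5% of the variance, and on it 3xTg replicate 1 lay at 15, apart from 3xTg replicates 2 and 3 at 51.6 and 42.9, whereas NTG libraries lay from -51 to -27.7. By limma, 4 of 18 endothelial markers fell in 3xTg cells (Cldn5, Tie1, Eng and Esam), as did 3 of the 11 tested of pericytes and smooth muscle (Rgs5, Higd1b and Cspg4, the last of which oligodendrocyte progenitors also express and which stood in that list too), beside 1.67% of all genes tested. edgeR did not call Cldn5, Esam or Higd1b, and DESeq2 did not call Higd1b. The number of marker genes called lower over all lists, 9, was 37 without 3xTg replicate 1, 0 without 3xTg replicate 2, 1 without 3xTg replicate 3, 1 without NTG replicate 1 and 2 without NTG replicate 2. Summed normalized counts were 22449 to 30924 in 3xTg and 34361 to 40612 in NTG for endothelial markers, and 22878 to 38003 in 3xTg and 44756 to 52436 in NTG for pericyte and smooth muscle markers, with 3xTg replicate 1 the highest of its group in both and no defining marker at 0. Mgp of fibroblasts (not called by edgeR) and P2ry12 of microglia fell as well. In bulk samples, fewer cells of a type and less RNA per cell cannot be told apart.

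Transcripts of the 8 annexins covered a wide range of levels. Per kilobase of exon, the order over all 6 libraries ran from Anxa5 at 6644 ± 722 and Anxa6 at 2663 ± 147 normalized counts through Anxa2 at 448 ± 50.9, Anxa7 at 295 ± 33.8 and Anxa4 at 185 ± 42.4 to Anxa1 at 51.2 ± 10.1, Anxa11 at 50.2 ± 8.23 and Anxa3 at 39.8 ± 12.1 (SD, n = 6). The ranges of neighbours in that order did not overlap down to Anxa1. The order rests in part on division by the length of all annotated exons of a gene. Without it, Anxa7 had a mean of 1770 normalized counts over all libraries and Anxa2 one of 1670. Anxa1, Anxa11 and Anxa3 overlapped over the 6 libraries and over the NTG libraries alone. Within 3xTg, Anxa3 (24.5 to 35.9) lay below Anxa1 (37.9 to 62) and Anxa11 (47.7 to 63.6).

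**Figure D1:**
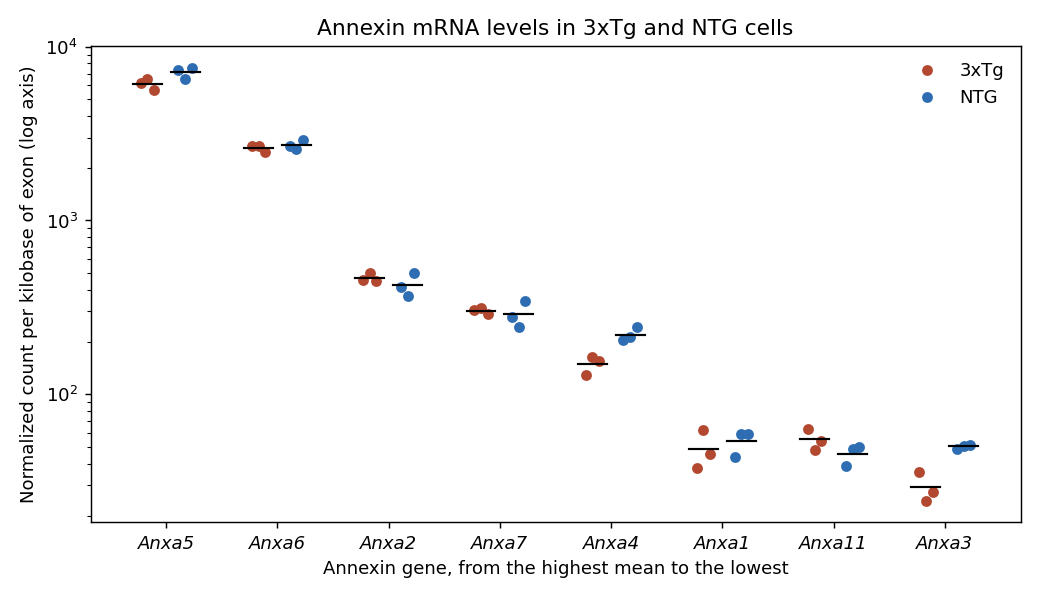
Normalized counts per kilobase of exon (log axis) of the 8 annexin genes in each library, 3xTg in red and NTG in blue, with the group means as bars. Anxa5 and Anxa6 stand above the others in every library, and the 3xTg and NTG points are apart only for Anxa4 and Anxa3.

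Genotypes were set against each other with limma. The values tested were log2(normalized count + 1), a scale that understates changes of low genes, and 18664 genes whose mean reached 10 were included. Log2 fold changes are 3xTg over NTG. Calls required a size above 0.5 and a limma adjusted p below 0.05. None of the 8 annexins was called, whereas over all genes tested 1.13% were called higher and 1.67% lower. At an unadjusted limma p under 0.05 there were 2, Anxa3 and Anxa4, both lower in 3xTg cells, beside 11.4% of all genes lower and 12.1% higher. edgeR on the recovered reads also called none (1.61% of all genes lower), and DESeq2 called Anxa3 and Anxa4 lower (3.79% of all genes lower and 3.4% higher). The same members were those whose 3xTg libraries all lay below the NTG libraries, a pattern that 12.6% of all genes showed, and no member had all 3xTg libraries above, which 15.1% of all genes showed. The median log2 fold change of the 8 was -0.12, beside 0.01 for all genes tested.

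**Figure D2:**
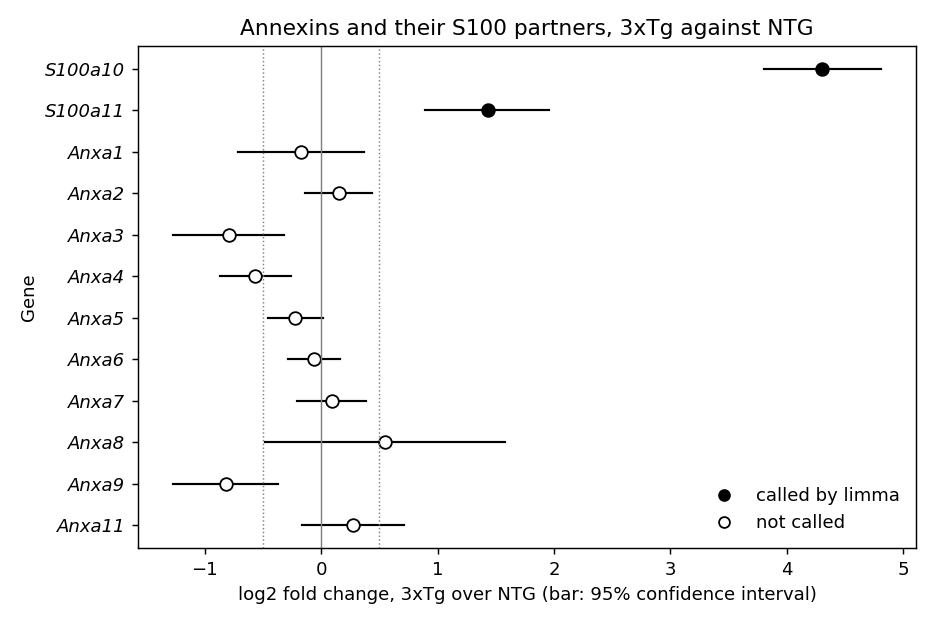
The log2 fold change, 3xTg over NTG, of 10 annexins and of S100a10 and S100a11, with 95% confidence intervals from limma (bars), n = 3 each. Filled points were called and dotted lines mark the threshold of 0.5 in size. S100a10 and S100a11 lie to the right of it, and the intervals of Anxa3, Anxa4 and Anxa9 lie left of 0 without a call.

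Anxa2 (chr9:69453620-69491795, plus strand) had 1699, 1870 and 1677 normalized counts in 3xTg replicates 1 to 3, against 1538, 1376 and 1859 in NTG replicates 1 to 3. The groups overlapped, since NTG replicate 3 was above all 3xTg libraries but replicate 2. Means were 1749 ± 105 in 3xTg and 1591 ± 246 in NTG (SD, n = 3 each), with a log2 fold change of 0.15 ± 0.13 (SE; limma adjusted p = 0.518). The 95% confidence interval, -0.14 to 0.44, leaves room for a level between 0.905 and 1.35 times that of NTG cells. The value was 0.17 without 3xTg replicate 1, and over all left-out libraries it ran from 0.05 without NTG replicate 2 to 0.26 without NTG replicate 3. An antisense gene, Gm16144, shares 98 exonic bases with Anxa2, and the library kit does not mark strand, so their reads cannot be told apart there.

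Its partner S100a10 differed far more. S100a10 had 1305, 1079 and 988 normalized counts in 3xTg, against 45.6, 77.1 and 48.8 in NTG, with no overlap and a log2 fold change of 4.30 ± 0.23 (SE; limma adjusted p = 1.5e-05). Per kilobase of exon, the ratio of S100a10 to Anxa2 was 2.36, 1.78 and 1.81 in 3xTg, against 0.0914, 0.173 and 0.0808 in NTG. On that measure S100a10 was the higher of the pair in 3xTg libraries, and Anxa2 in NTG libraries. It divides by all annotated exons of a gene, 1212 bases for S100a10 and 3731 for Anxa2. Without division by length, Anxa2 was the higher in every library, so which mRNA was the more abundant in 3xTg depends on the length used. The ratio was 18.1-fold higher in 3xTg (log2 difference of 4.18; two-sided exact permutation p = 0.1, the smallest that 3 samples against 3 allow). It was 4.05 on the log2 scale without 3xTg replicate 1.

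Anxa1 (chr19:20373428-20390944, minus strand), known for dampening inflammation through formyl peptide receptors, was among the least abundant members. It had 110.2, 181 and 132 normalized counts in 3xTg, against 128, 172 and 172 in NTG. The groups overlapped fully, with the highest and the lowest library both in 3xTg. The log2 fold change was -0.17 ± 0.24 (SE; limma adjusted p = 0.692), with a 95% confidence interval of -0.71 to 0.37, and it was -0.01 without 3xTg replicate 1. Its receptors were near 0. All 5 formyl peptide receptor genes listed (Fpr1, Fpr2, Fpr3, Fpr-rs3 and Fpr-rs4) were under the filter, and together they had 0 to 5.06 normalized counts in 3xTg and 0 to 4.44 in NTG.

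S100a11, the partner of annexin A1, rose in 3xTg cells. It had 285, 188 and 202 normalized counts in 3xTg, against 66.7, 89.8 and 91.7 in NTG, with no overlap and a log2 fold change of 1.43 ± 0.24 (SE; limma adjusted p = 0.0147). Leaving out 3xTg replicate 3 ended the call (1.49; limma adjusted p = 0.0599), and so did leaving out NTG replicate 1 (1.28; limma adjusted p = 0.062). Per kilobase of exon, S100a11 exceeded Anxa1 14.8-, 5.95- and 8.75-fold in 3xTg and 2.98-, 2.96- and 3.04-fold in NTG. Without division by length, S100a11 was above Anxa1 in every 3xTg library and below it in every NTG library. The pseudogenes Gm12854 and Gm7665 match S100a11 over 297 bases and had no more than 18.2 and 10.7 normalized counts in any library, so the level of S100a11 is uncertain where the counting could split reads among them. S100a10 and S100a11 are neighbours on chromosome 3, and with Them4, a thioesterase gene, S100a11 was called higher among the 17 tested genes within 1 Mb of S100a10.

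The other S100 genes listed did not pass. Of the 8 listed, 2 rose, S100a10 and S100a11, and none fell (1.13% of all genes rose), with a median log2 fold change over the list of -0.14. At an unadjusted limma p under 0.05 there were 2 higher and 3 lower, beside 12.1% and 11.4% of all genes. S100a16, the highest of the rest by mean, had 20653, 17314 and 16356 normalized counts in 3xTg, against 18710, 18105 and 20377 in NTG (log2 fold change of -0.08; limma adjusted p = 0.718). S100a1 had 12826, 8907 and 9770 in 3xTg, against 11496, 10756 and 13779 in NTG (log2 fold change of -0.20; limma adjusted p = 0.438). Both overlapped between genotypes.

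**Figure D3:**
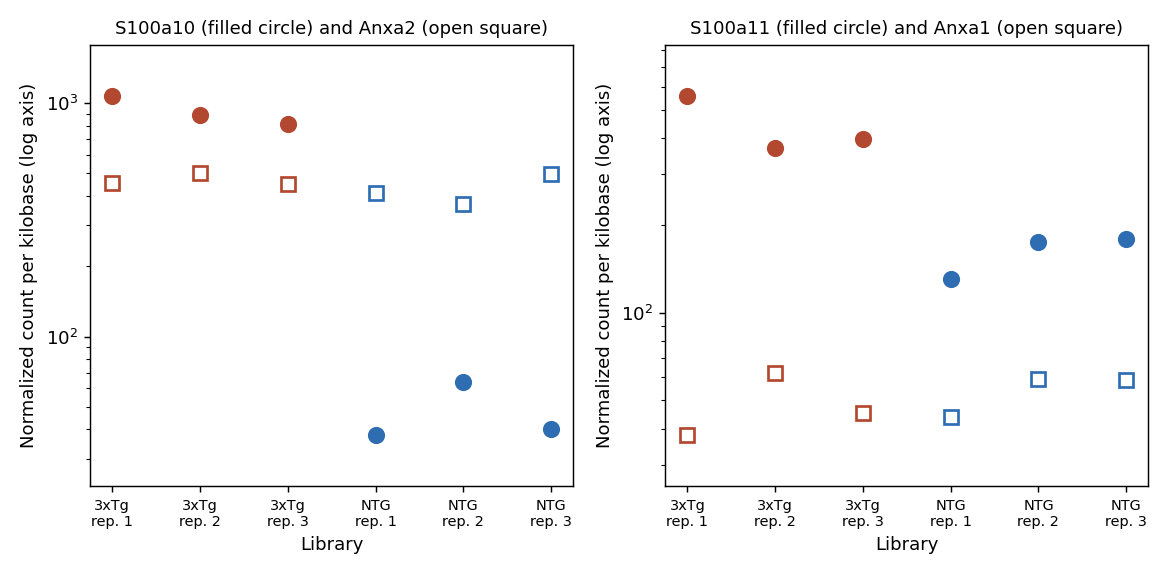
Normalized counts per kilobase of exon (log axis) in each library, for S100a10 (filled circles) and Anxa2 (open squares) on the left and for S100a11 (filled circles) and Anxa1 (open squares) on the right, 3xTg in red and NTG in blue. S100a10 lies above Anxa2 in the 3 3xTg libraries and below it in the 3 NTG libraries, whereas S100a11 lies above Anxa1 in all 6.

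Anxa4 (chr6:86736840-86793584, minus strand), an annexin of epithelia that self-assembles on membranes, had the smallest p of the family. It had 604, 755 and 723 normalized counts in 3xTg, against 958, 989 and 1128 in NTG. Every 3xTg library lay below every NTG library, with 3xTg replicate 1 the lowest. The means of 694 ± 79.5 in 3xTg and 1025 ± 90.7 in NTG (SD, n = 3 each) gave a log2 fold change of -0.57 ± 0.14 (SE; limma adjusted p = 0.0576; 95% confidence interval -0.87 to -0.26). The value is 0.676 times the NTG level, and the exact permutation p was 0.1. Without 3xTg replicate 1 the log2 fold change was -0.47, under the threshold in size, with a limma adjusted p of 0.0459. After the GC trend of each library was removed, Anxa4 was called lower (-0.64; limma adjusted p = 0.0292), where 1.43% of all genes were, and likewise with a replicate block added (limma adjusted p = 0.0305; 1.61% of all genes). DESeq2 also called it (adjusted p = 0.00595). Over the 18 alternatives its limma, edgeR or DESeq2 adjusted p ran from 0.00595 to 0.171 and its log2 fold change from -0.64 to -0.46. A gene on the opposite strand, Gm44036, shares 75 exonic bases with Anxa4, and their reads cannot be told apart there.

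Anxa3 (chr5:96793339-96845966, plus strand), one of the 3 members of lowest level, is known as an inhibitor of phospholipase A2. It had 131, 89.4 and 99.6 normalized counts in 3xTg, against 178, 185 and 186 in NTG. The NTG libraries were close together, and all 3xTg libraries lay below them, 3xTg replicate 1 the nearest. With 126 to 159 reads per library, these are the thinnest data of the family beside Anxa1. The log2 fold change was -0.79 ± 0.21 (SE; limma adjusted p = 0.0783; 95% confidence interval -1.27 to -0.32), 0.577 times the NTG level, with an exact permutation p of 0.1. It was called lower by DESeq2 (adjusted p = 0.0138), by limma with array weights (-0.85; limma adjusted p = 0.00621; 7.54% of all genes lower) and by limma without 3xTg replicate 1 (-0.95; limma adjusted p = 0.0222; 5.74% of all genes lower). Its adjusted p ran from 0.00621 to 0.296 over the 18 alternatives.

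Anxa3 and Anxa4 were set beside the vessel markers, library by library. As mean log2 levels centred on the 6 libraries, endothelial markers were at 0.01, -0.70 and -0.50 in 3xTg replicates 1 to 3, against 0.54, 0.40 and 0.26 in NTG replicates 1 to 3. Those of pericytes and smooth muscle were at 0.17, -0.84 and -0.91 in 3xTg, against 0.65, 0.40 and 0.53 in NTG. Within 3xTg, Anxa3 and the endothelial markers were both highest in replicate 1 and lowest in replicate 2. Markers of fibroblasts, microglia, the oligodendrocyte lineage, mature neurons and red cells had that order too. Those of pericytes and smooth muscle did not. Within NTG, Anxa3 was lowest in replicate 1, where endothelial markers were highest. Anxa4 was lowest in 3xTg replicate 1, where vessel markers were the highest of that group. The part of vessel cells in either difference was not tested.

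**Figure D4:**
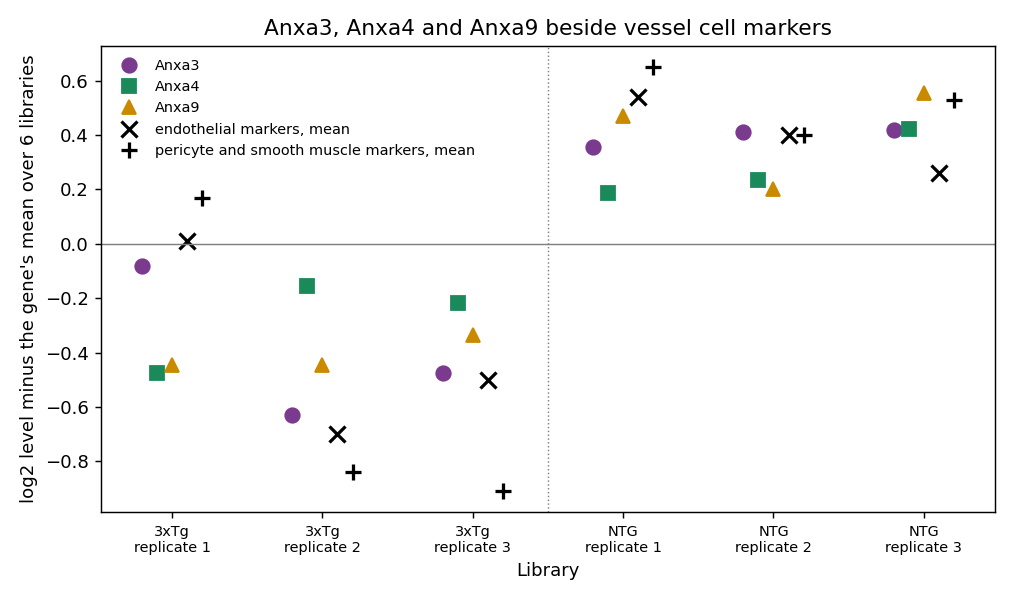
The log2 level of Anxa3, Anxa4 and Anxa9 in each library, minus the gene's mean over the 6 libraries, beside the mean of endothelial and of pericyte and smooth muscle markers on the same scale. In 3xTg replicate 1 the marker means are at 0.01 and 0.17, above Anxa3, Anxa4 and Anxa9, all of which lie below 0 in the 3 3xTg libraries and above 0 in the 3 NTG libraries.

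Anxa5 (chr3:36448923-36475894, minus strand), which binds exposed phosphatidylserine and is widely used to stain dying cells, was the most abundant member. It had 11031, 11598 and 10051 normalized counts in 3xTg, against 13122, 11577 and 13459 in NTG. The groups overlapped by 1 library, as 3xTg replicate 2 was just above NTG replicate 2. The log2 fold change was -0.22 ± 0.11 (SE; limma adjusted p = 0.241), with a 95% confidence interval of -0.46 to 0.02, or 0.725 to 1.01 times the NTG level. Without 3xTg replicate 1 it was -0.23.

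Anxa6 (chr11:54979108-55033445, minus strand), which acts in membrane traffic and cholesterol handling, came next in abundance. It had 7824, 7846 and 7257 normalized counts in 3xTg, against 7853, 7501 and 8530 in NTG. The groups overlapped, and the log2 fold change was -0.06 ± 0.10 (SE; limma adjusted p = 0.753). The 95% confidence interval, 0.825 to 1.12 times the NTG level, was the narrowest of the family. The sign turned after the GC trend was removed (0.04), and the value was -0.08 without 3xTg replicate 1.

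Anxa7 (chr14:20455260-20480133, minus strand) has a long N-terminal segment and promotes membrane fusion in secretion. It had 1837, 1876 and 1733 normalized counts in 3xTg, against 1663, 1460 and 2053 in NTG. All 3xTg libraries lay within the NTG range, and the log2 fold change was 0.09 ± 0.13 (SE; limma adjusted p = 0.726; 95% confidence interval -0.21 to 0.39). The sign turned without NTG replicate 2, at -0.03, and the value was 0.08 without 3xTg replicate 1. Among NTG libraries Anxa2 and Anxa7 had the same order, highest in replicate 3 and lowest in replicate 2, and likewise among 3xTg libraries, highest in replicate 2 and lowest in replicate 3.

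Anxa11 (chr14:25842156-25886804, plus strand), an adaptor that ties RNA granules to lysosomes in neurons and is mutated in some motor neuron disease, had 263, 197 and 222 normalized counts in 3xTg, against 159, 199 and 206 in NTG. The groups overlapped. The log2 fold change was 0.27 ± 0.20 (SE; limma adjusted p = 0.418; 95% confidence interval -0.16 to 0.71), and 0.16 without 3xTg replicate 1. An antisense gene, Anxa11os, shares 113 exonic bases with it and had 2.83, 3.94 and 5.2 normalized counts in 3xTg, against 11.7, 4.21 and 2.96 in NTG.

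Annexins A7 and A11 bind proteins with penta-EF-hands, calcium sensors that include Pdcd6 and sorcin (Sri). None of the 7 listed genes passed in either direction by limma, edgeR or DESeq2, and none had an unadjusted limma p under 0.05. Capn2, a calpain and the highest of them, had 10711, 10260 and 9455 normalized counts in 3xTg, against 9870, 9197 and 9007 in NTG (log2 fold change of 0.12; limma adjusted p = 0.506). Capns1, the small calpain subunit, had 4287, 3741 and 4242 in 3xTg, against 4029, 3924 and 4493 in NTG (log2 fold change of -0.02; limma adjusted p = 0.923).

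**Figure D5:**
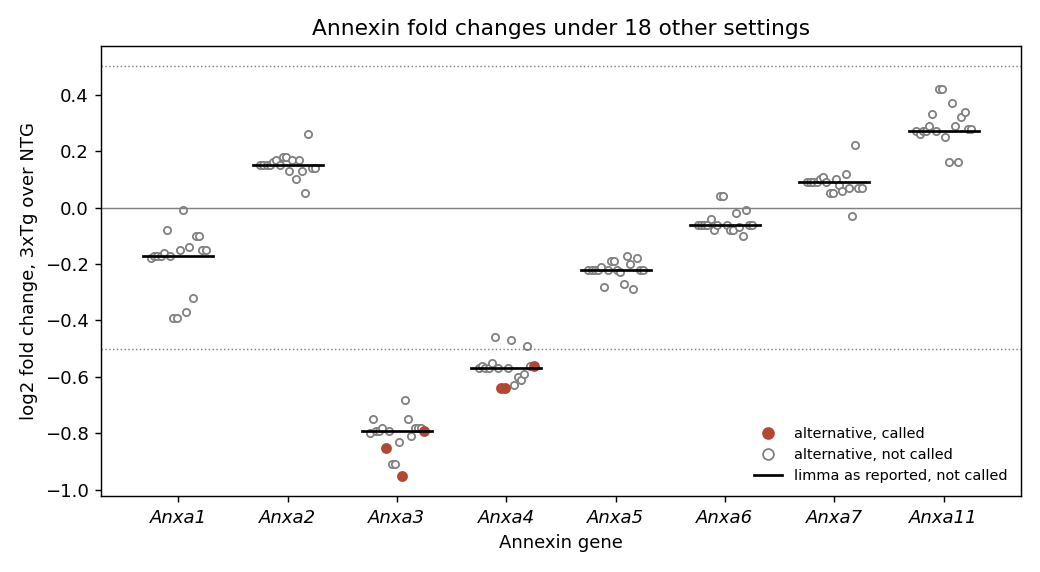
The log2 fold change, 3xTg over NTG, of the 8 annexins as reported (bars) and under 18 other settings (points; filled where called). The filled points are 3 of Anxa3 and 3 of Anxa4, and only Anxa6 and Anxa7 have points on both sides of 0.

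The make-up of the family was compared as each member's share of the summed normalized counts per kilobase of the 8 genes. The sum itself was 9907, 10315 and 9154 in 3xTg, against 11092, 10058 and 11729 in NTG (exact permutation p = 0.2). Anxa5 made up 62.7%, 63.3% and 61.8% of it in 3xTg, against 66.6%, 64.8% and 64.6% in NTG, all 3xTg libraries being below the NTG libraries. Anxa6 made up 27%, 26% and 27.1% in 3xTg, against 24.2%, 25.5% and 24.8% in NTG, all above. Anxa2 made up 4.6%, 4.86% and 4.91% in 3xTg, against 3.72%, 3.67% and 4.25% in NTG, all above. Shares add up to a fixed total, so a lower share of Anxa5 raises the others. The 3xTg shares of Anxa7 were also all above, and those of Anxa3 and Anxa4 all below, the NTG shares. Each of these 6 had an exact permutation p of 0.1, the smallest possible (0.133 adjusted over 8), while Anxa1 and Anxa11 overlapped. Because the shares are linked, these 6 are not separate results, and no share over all genes can be set beside them. By level, only Anxa3 and Anxa4 were apart, both below, as were 12.6% of all genes.

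Outside the 8 members, the table held 4 further annexins. Anxa10 was at 0 in every library, and Anxa13 had 2.34 normalized counts in NTG replicate 1 and 0 in the other libraries. Anxa8 had 135, 174 and 122 normalized counts in 3xTg, against 136, 39.3 and 167 in NTG, and its log2 fold change of 0.55 (limma adjusted p = 0.494) rested on NTG replicate 2, without which it was -0.09. Anxa9, an atypical annexin, had 93.3, 93.4 and 101 normalized counts in 3xTg, against 177, 147 and 188 in NTG. All 3xTg libraries lay below the NTG libraries, with a log2 fold change of -0.82 ± 0.20 (SE; limma adjusted p = 0.0641). Like Anxa3, it was called lower by DESeq2, with array weights and without 3xTg replicate 1 (-0.80; limma adjusted p = 0.0443). It shares 71 exonic bases with Mindy1, on the opposite strand, and 94 with 6330562C20Rik, on its own strand. Reads of these genes cannot be told apart there.

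Genes through which annexins act were covered by 7 partner lists. Of their 56 tested genes, 2 rose, the S100 genes above, and none fell, beside 1.13% of all genes higher and 1.67% lower, with a median log2 fold change of -0.01. At an unadjusted limma p under 0.05 there were 9 higher and 8 lower, beside 12.1% and 11.4% of all genes. DESeq2 called 3 higher and 1 lower, and edgeR 2 higher and none lower.

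Among proteins tied to the p11-annexin A2 complex, none of 6 tested passed by limma, edgeR or DESeq2. Of these 6, 2 were higher in 3xTg and none lower at an unadjusted limma p under 0.05, beside 12.1% and 11.4% of all genes. Their median log2 fold change was 0.24. The 2 genes of highest mean follow, both below 0. Ctsb, a lysosomal protease that binds the complex at the cell surface, had 54617, 47986 and 44397 normalized counts in 3xTg, against 57109, 48541 and 51550 in NTG (log2 fold change of -0.10; limma adjusted p = 0.679). Dlc1, a GTPase-activating protein that binds p11, had 1287, 869.6 and 823 in 3xTg, against 1170, 968 and 1427 in NTG (log2 fold change of -0.27; limma adjusted p = 0.423). The serotonin receptors Htr1b and Htr4, which p11 carries to the membrane, were under the filter, with no more than 17.6 normalized counts in any library.

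Of the plasminogen system, whose activation the complex promotes, none of 7 tested genes passed by limma, edgeR or DESeq2. Only 1 was higher in 3xTg and none lower at an unadjusted limma p under 0.05, beside 12.1% and 11.4% of all genes. Plasminogen itself (Plg) was under the filter, with 7.87 normalized counts in 3xTg replicate 2, 10.5 in NTG replicate 1 and 0 in the other libraries. Serpine2, an inhibitor of plasminogen activators and thrombin, had 51769, 46216 and 41997 normalized counts in 3xTg, against 52627, 46362 and 50634 in NTG (log2 fold change of -0.10; limma adjusted p = 0.667). Plat, the tissue plasminogen activator, had 10025, 7826 and 7707 in 3xTg, against 11880, 9623 and 9269 in NTG (log2 fold change of -0.27; limma adjusted p = 0.265).

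None of the 12 membrane repair genes tested passed by limma or edgeR. At an unadjusted limma p under 0.05, 2 of them were higher in 3xTg and 2 lower, beside 12.1% and 11.4% of all genes. Their median log2 fold change was 0.09. DESeq2 called Myof, a ferlin, lower, at 30.1, 38.8 and 27.5 normalized counts in 3xTg and 88.9, 46.3 and 84.3 in NTG (limma log2 fold change of -1.12; limma adjusted p = 0.0968); it was chosen for mention after its values were seen. Ehd1, an ATPase of endocytic recycling, had 4271, 4189 and 4612 normalized counts in 3xTg, against 4559, 5315 and 5193 in NTG (log2 fold change of -0.20; limma adjusted p = 0.259). Vps4a, which takes apart the ESCRT machinery, had 4292, 4820 and 4389 in 3xTg, against 3991, 4154 and 3979 in NTG, all 3xTg libraries being above (log2 fold change of 0.15; limma adjusted p = 0.352).

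Exposure of phosphatidylserine, the lipid that annexin A5 detects, and engulfment of cells that display it were covered by 16 genes. None passed by limma or edgeR. With an unadjusted limma p under 0.05, 2 were higher in 3xTg and 3 lower, beside 12.1% and 11.4% of all genes. DESeq2 called 1 of the 16 higher and none lower. Mfge8, a secreted bridge between the lipid and phagocytes, had 411926, 250582 and 259772 normalized counts in 3xTg, against 341475, 268523 and 377721 in NTG (log2 fold change of -0.12; limma adjusted p = 0.79). Mertk, an engulfment receptor, had 21589, 17464 and 15714 in 3xTg, against 19964, 14881 and 16204 in NTG (log2 fold change of 0.10; limma adjusted p = 0.719).

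Patterns most like those of Anxa2 and Anxa4 were sought over the 6 libraries on the log2 scale. The search covered 12374 tested genes with a mean of at least 100. Genes without a symbol or with the symbol of a predicted gene (Gm and a digit, or ending in Rik) were left out. Likest to Anxa2 were Dnah7b, a ciliary dynein (Pearson's r of 0.989), Cyp1b1, a cytochrome P450 (0.984), and Spry2, an inhibitor of growth factor signalling (0.971). Spry2 had 2769, 2912 and 2512 normalized counts in 3xTg, against 1995, 1649 and 2859 in NTG, with the low NTG replicate 2 that Anxa2 also showed. Likest to Anxa4 were Slc25a51, a mitochondrial carrier of NAD (0.993), Rai2 (0.989) and Nmnat3, an enzyme of NAD synthesis (0.988). Nmnat3 had 47.1, 72.6 and 79.5 normalized counts in 3xTg, against 228, 258 and 380.1 in NTG, without overlap and lowest in 3xTg replicate 1 as Anxa4 was. These correlations are descriptions over 6 libraries in which genotype and depth differ together, picked as the highest of many.

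Fold changes over all genes also went with GC content. The fifth of genes poorest in GC had a median of 0.26, and the fifth richest in GC one of -0.21. Among genes within 1 percentage point of a member's GC content, the median was 0.24 for Anxa1, 0.15 for Anxa3, 0.10 for Anxa4, 0.01 for Anxa5 and -0.13 for Anxa11, opposite in sign to the member's own log2 fold change. It was 0.01 for Anxa2, -0.07 for Anxa6 and 0.07 for Anxa7, of the same sign as the member's own.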

How the data were processed

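RNA of 3 3xTg and 3 NTG libraries (SMART-Seq V4 and Nextera XT, NovaSeq) was sequenced. The authors ran HISAT2 on the GRCm38 index (mm10) and used featureCounts to assign reads. SAMtools and MultiQC are also named in the submitters' processing notes, and versions are not given in the sources used here. The deposited signal values are counts normalized with DESeq2 by the authors, 1 factor per library; 100% of values gave whole reads within 0.01, and these reads were used for edgeR and DESeq2. The table also holds the authors' own DESeq2 comparison (fold changes, p-values, weights), which was not used.

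Of 55471 genes, 55144 were matched by identifier to GENCODE M21. limma 3.58.1 in R 4.3.3, with a mean-variance trend and Benjamini-Hochberg adjustment, was fitted to log2(normalized count + 1) of 18664 genes whose mean reached 10. Alternatives were the added count, filter, TMM scaling, array weights, replicate block, removal of the GC trend, thinned reads, leaving out each library, edgeR 4.0.16 and DESeq2 1.42.0. The limma fit was tested on simulated data. Levels between genes were compared per kilobase of exon. Similar transcripts were sought with BLAST 2.17.0. Sequences were read from the GENCODE M21 transcripts, with positions in GRCm38, and were translated and aligned with Biopython 1.88. Figures were drawn with matplotlib 3.10.9. Tables were made with pandas 2.3.3, scipy 1.17.1 and numpy 2.4.6 under Python 3.11.15.

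The 8 members and all gene lists were chosen with earlier results of these data known. By rule, all members and every passing gene of a partner list were named, with up to 2 further genes of highest mean per list, passing marker genes, and the 3 genes likest to Anxa2 and to the member with the smallest p. Depth was 32731794 to 81800375 reads per library. The methods of the study call the 3 samples of a group biological replicates. Correlations of same-numbered libraries, after group means were removed, were 0.0635, 0.2 and 0.0383, so the numbers are not shown to pair samples and the replicate block was an alternative alone. Some genes and alleles are not reported here.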

Additional observations from a re-analysis of the deposited data

How the results depend on the processing

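Of the 144 fold changes of the 8 members under 18 alternatives, 135 kept their sign and stayed without a call. Anxa3 became a call with array weights (-0.85), with DESeq2 (-0.79) and without 3xTg replicate 1, its range over left-out libraries being -0.95 to -0.68. Anxa4 became one with the GC trend removed (-0.64), also with a replicate block (-0.64), and with DESeq2 (-0.56). Signs turned for Anxa6 with the GC trend removed, with and without the replicate block (0.04 in both), for Anxa7 without NTG replicate 2 (range -0.03 to 0.22) and for Anxa8 likewise (range -0.09 to 0.95). Members called lower were thus 1 with array weights and with each GC removal, 2 with DESeq2, and 0 to 1 with a library left out, against none as reported by limma. Over all genes, calls higher and lower were 1196 and 1408 with array weights, 635 and 707 with DESeq2, and 49 to 959 and 106 to 1071 with a library left out, most without 3xTg replicate 1; 193 were lower with a mean of at least 50. Partner genes called higher were 4 with array weights and 1 to 3 with a library left out, and lower 3 with array weights, 1 with DESeq2 and 0 to 2 with a library left out. Marker genes called lower, 9 as reported, were 48 with array weights, 21 with DESeq2, 20 with a replicate block, 19 with the block and the GC trend removed, 5 with edgeR, thinned reads, the GC trend removed or a mean of at least 50, and 0 to 37 with a library left out; higher they were 5 with array weights, 2 with DESeq2 and 0 to 2 with a library left out. The replicate block alone changed no member's call; for Anxa4 it gave -0.57 (limma adjusted p = 0.0504). Without division by length, differences in share were 1.31 (Anxa2), -0.26 (Anxa3), -1.03 (Anxa4), 1.09 (Anxa7) and 0.242 percentage points (Anxa11). Causes of these shifts were not tested. Depth limits Anxa1, Anxa3 and Anxa11 most, with 109, 126 and 136 reads in the library that held the fewest of each.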
